A study of Mus musculus with 6 samples.

Results

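The genes described here are 10 genes of fatty acid synthesis, desaturation and elongation (Srebf1, Acly, Acaca, Fasn, Scd1, Scd2, Fads1, Fads2, Elovl5 and Elovl6), taken by name from the 57132 genes of the count table. They were measured by RNA sequencing in 3 samples of immortalized wildtype (WT, Col4a3+/+) podocytes and 3 samples of immortalized Alport syndrome (AS, Col4a3-/-) podocytes, the epithelial cells of the kidney filter. All 6 samples were untreated, came from male mice labelled as 8 weeks old, were grown at 33 °C with 20 U/mL interferon gamma and were differentiated for 14 days at 37 °C, as the sample records state. The paper's methods give a shorter differentiation, a lower interferon gamma concentration and another medium, without interferon gamma during differentiation. Both lines were derived from crosses of Col4a3 knockout mice with H-2Kb-tsA58 mice, whose interferon-inducible transgene drives a temperature-sensitive large T antigen, so that WT podocytes carry it too. Each genotype was represented by 1 cell line, and genotype and cell line cannot be told apart in these data. The samples of a line are numbered as sets 1 to 3 and are not stated to be separate cultures, so that the p-values measure the spread between these samples, which may be technical.

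Cells build fatty acids from citrate. ATP citrate lyase (Acly) cuts citrate to acetyl-CoA, acetyl-CoA carboxylase (Acaca) makes malonyl-CoA from it, and fatty acid synthase (Fasn) joins these units into palmitate. Palmitate is lengthened to stearate by the elongase Elovl6, and stearoyl-CoA desaturases (Scd1, Scd2) place the double bond that turns stearate into oleate, the main fatty acid of stored triglycerides. Polyunsaturated fatty acids from the diet are processed by the delta-6 desaturase Fads2, the elongase Elovl5 and the delta-5 desaturase Fads1. The transcription factor SREBP1, the product of Srebf1, is known to drive most of these genes in liver and fat. In podocytes, fatty acids and triglyceride droplets are studied because free fatty acids can injure these cells.

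RefSeq lists promoter windows, which run from 250 bases before to 50 bases after a start of transcription, for 7 of the 10 genes (9 windows, GRCm38.p6). Scd1, Scd2 and Fads1 were not matched. The 120 bases before the start are shown for a gene that was higher in AS podocytes (Elovl6), the pair that was lower (Acly and Elovl5) and a gene that was called in neither direction (Fasn), each 5′ to 3′ on the strand of the gene. Capitals mark the CCAAT box (CCAAT, bound by NF-Y) and the GC box (GGGCGG, bound by Sp1) on either strand.
Elovl6 (chr3:129532266-129532385, + strand): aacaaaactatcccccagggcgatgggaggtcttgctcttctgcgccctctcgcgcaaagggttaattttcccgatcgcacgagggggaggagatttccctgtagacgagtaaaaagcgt
Acly (chr11:100528001-100528120, - strand): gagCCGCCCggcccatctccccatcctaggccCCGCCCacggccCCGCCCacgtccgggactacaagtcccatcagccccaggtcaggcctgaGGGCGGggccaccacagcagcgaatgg
Elovl5 (chr9:77917245-77917364, + strand): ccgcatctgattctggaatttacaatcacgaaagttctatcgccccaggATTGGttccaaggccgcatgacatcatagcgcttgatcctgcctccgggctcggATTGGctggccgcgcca
Fasn (chr11:120824548-120824667, - strand): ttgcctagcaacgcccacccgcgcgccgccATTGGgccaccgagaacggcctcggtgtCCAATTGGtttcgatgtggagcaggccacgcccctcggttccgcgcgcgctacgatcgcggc

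The stretch of Fasn held 3 CCAAT boxes, 2 of which overlap, that of Elovl5 held 2, that of Acly held 4 GC boxes, and neither motif was found in that of Elovl6. The stretches of Srebf1, which was also higher in AS podocytes and is not shown, held 3, 2 and 0 matches of these motifs. Over the whole windows, a CCAAT box was found in 5 of the 9 windows (Srebf1, Acly, Fasn and Elovl5) and in 37.4% of all 32851 windows of the same length. A GC box was found in 4 of the 9 windows (Srebf1, Acly and Fads2) and in 35.7% of all windows. The sterol regulatory element (TCACNCCAC, either strand) was found in none of the 9 windows and in 1.24% of all windows, and the DR4 element of liver X receptors in none of the 9 and in 0.0152% of all. An E box (CACGTG) was found in the window of Elovl5 alone, and in 7.15% of all windows. A match or its absence describes the letters of these windows only, and binding was not measured.

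The libraries held between 45417221 and 54290968 counts. Col4a3, the gene knocked out in the AS line, was at 938, 1052 and 1272 CPM (counts relative to TMM-scaled library sizes) in the WT samples and at 62.4, 61.2 and 82.9 CPM in the AS samples, so that all AS samples were far below all WT samples. The label of podocyte was met in part: Synpo was at 803 ± 44.2 CPM in the WT and 526 ± 30.8 CPM in the AS line (SD, n = 3 each), whereas nephrin (Nphs1) stayed below 0.5 CPM. Of 15 podocyte markers, 12 passed the filter on low counts, of which 3 were higher and 7 lower in AS podocytes. Those called at an adjusted p under 0.05 (edgeR) were 83.3% of the 12, against 40.1% of all genes tested. Among markers of adipocytes, which express the genes of this pathway highly, 7 of 8 had a mean under 1 CPM, Lep and Cidec had 0 counts (3 counts per group, the limit that 0 allows for counting error, are 0.0207 CPM in the WT and 0.0200 CPM in the AS line), and the summed level ran from 4.89 to 6.32 CPM in WT and from 12.2 to 13.0 CPM in AS podocytes, most of it Adrb3. All 6 hepatocyte markers had a mean under 1 CPM. The summed level of 6 proximal tubule markers ran from 377 to 424 CPM in WT and from 281 to 392 CPM in AS podocytes, led by Lrp2, that of 6 mesangial markers from 5751 to 7903 and from 6419 to 7545 CPM, led by Acta2, that of 6 macrophage markers from 11.6 to 15.4 and from 5.43 to 7.41 CPM, led by Csf1r, and that of 6 endothelial markers from 0.907 to 1.75 and from 0.311 to 0.739 CPM, led by Kdr in WT and by Vwf in AS podocytes. Acta2 made up most of the mesangial sum. Pdgfrb, of the same list, fell from 253 ± 14.3 to 116 ± 0.362 CPM (SD, n = 3 each, log2 fold change -1.12, adjusted p = 8.7e-07, edgeR). The other 4 of the 5 mesangial markers tested were not called. The part of these marker differences in the results was not tested.

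WT replicate 1 stood apart from its line. The chi-square of the counts per degree of freedom was 48.6 and 51.0 between it and the other WT samples, 9.96 between those, and 19.1 to 23.0 among the AS samples. In 7 of the 10 genes it was the WT sample farthest from the AS mean, and its mitochondrially encoded share of the counts was the lowest of the 6, at 0.882% against 1.30 to 2.02% in the others. Values without it are therefore given beside the changes.

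All 10 genes passed the filter on low counts and were tested. In AS podocytes 5 were higher (Srebf1, Scd1, Scd2, Fads1, Elovl6), 2 were lower (Acly, Elovl5), and 3 (Acaca, Fasn, Fads2) reached no adjusted p under 0.05 (quasi-likelihood test of edgeR). Of all 16263 genes tested, 20.4% were higher and 19.6% were lower by the same test, or 40.1% in either direction. The same 7 genes had WT and AS samples that did not overlap, 5 with AS above and 2 with AS below WT, against 52.3% of all genes tested (26.4% above and 26% below). The median log2 fold change was 0.17 over the 10 genes and 0.01 over all genes tested. The changes were moderate, and the largest was the 1.78-fold rise of Elovl6, while 11.2% of all genes tested passed with a fold change over 2.

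**Figure D1:**
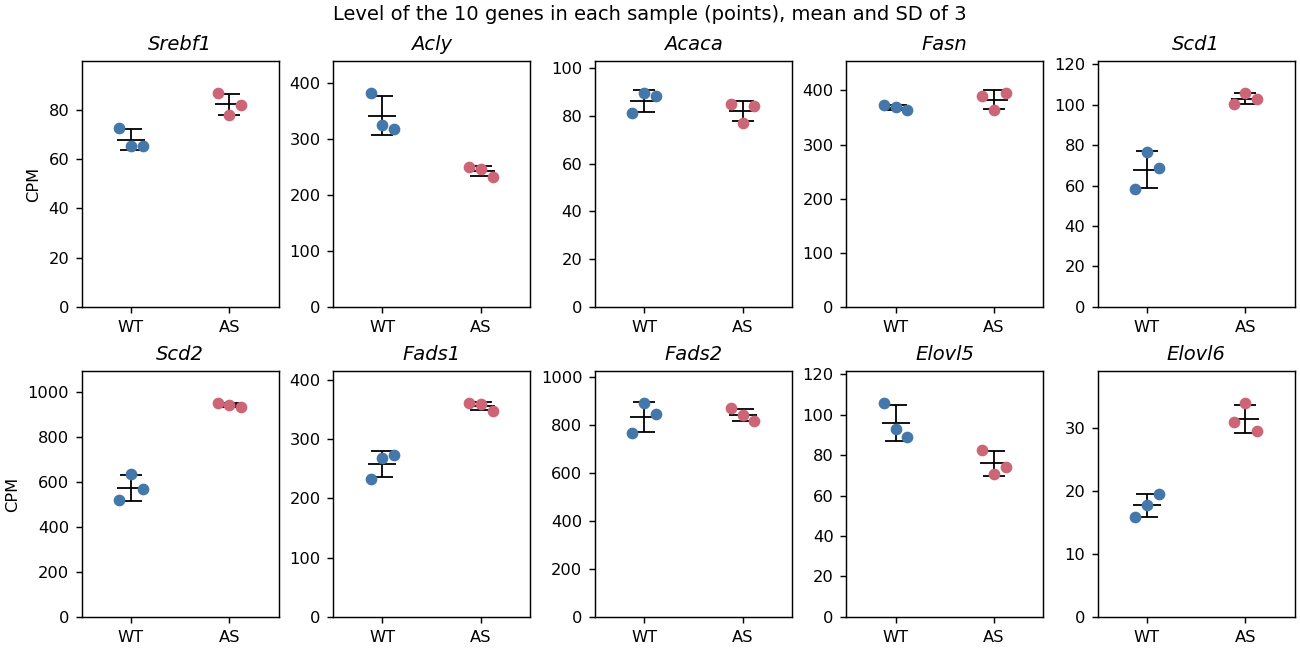
Level of each gene in CPM (vertical axes, from 0) in the 3 WT (blue) and 3 AS (red) samples, in the order of replicates 1 to 3, with the mean and SD in black. In Srebf1, Scd1, Scd2, Fads1 and Elovl6 every AS sample sits above every WT sample, in Acly and Elovl5 every AS sample sits below, and in Acaca, Fasn and Fads2 the lines overlap.

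Srebf1 (ENSMUSG00000020538.16, chromosome 11), the regulator, was at 72.9, 65.5 and 65.3 CPM in the WT samples and at 86.8, 78.2 and 81.9 CPM in the AS samples. The AS samples were all above the WT samples, by a small margin between AS replicate 2 and WT replicate 1. The means were 67.9 ± 4.31 and 82.3 ± 4.35 CPM (SD, n = 3 each), a log2 change of 0.28 by edgeR (standard error, SE, 0.07, adjusted p = 0.00830), or 1.21 times the WT level, and 0.33 without WT replicate 1. Counts per gene do not separate SREBP-1a from SREBP-1c, which start at different promoters, nor the precursor from the cleaved protein. The gene overlaps Rai1 on the other strand, whose transcripts share 1.04% of the 50-base stretches of Srebf1, and whether strand was used in counting is not stated. Rai1 was at 79.9 ± 2.29 CPM in the WT and 71.5 ± 3.72 CPM in the AS line (SD, n = 3 each, adjusted p = 0.0542, edgeR).

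Acly (ENSMUSG00000020917.18, chromosome 11), whose product supplies acetyl-CoA in the cytosol, was at 382, 325 and 319 CPM in the WT samples and at 250.3, 246 and 232 CPM in the AS samples. All AS samples lay below all WT samples, and WT replicate 1 was the highest of the 6. The means of 342 ± 35.1 and 243 ± 9.34 CPM (SD, n = 3 each) gave a log2 change of -0.49 by edgeR (SE 0.08, adjusted p = 0.000946), or 0.711 times the WT level. Without WT replicate 1 it was -0.40. Acly was the only member of the supply and synthase steps that passed the test.

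Acaca (ENSMUSG00000020532.19, chromosome 11), the enzyme of the step that commits carbon to fatty acids, was at 81.1, 89.6 and 88.5 CPM in the WT samples and at 85.0, 77.2 and 84.1 CPM in the AS samples. The lines overlapped, and the log2 change by edgeR was -0.07 (SE 0.06, adjusted p = 0.391), no larger than the scatter of the samples. It was -0.12 without WT replicate 1 and -0.036 without AS replicate 2, and did not pass in either. Its level is uncertain, since 30.4% of the 50-base stretches of its transcripts also occur in other genes, 29.2% in the gene Gm5182. Gm5182 itself was at 0.625 ± 0.247 CPM in the WT and 3.37 ± 0.333 CPM in the AS line (SD, n = 3 each).

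Fasn (ENSMUSG00000025153.10, chromosome 11), the synthase that releases palmitate, was at 373, 369 and 363 CPM in the WT samples and at 391, 364 and 395 CPM in the AS samples. The lines overlapped at AS replicate 2. The log2 change by edgeR was 0.06 (SE 0.06, adjusted p = 0.477), and with 1 sample left out it stayed between 0.034 and 0.087. None of its 50-base stretches was found in another gene.

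Both stearoyl-CoA desaturases were higher in AS podocytes. Scd2 (ENSMUSG00000025203.7, chromosome 19), the form that is prominent in brain and early life, was at 519.8, 635 and 571 CPM in the WT samples and at 950.5, 944 and 932 CPM in the AS samples, and the lowest AS sample lay well above the highest WT sample. The means of 575 ± 57.6 and 942 ± 9.15 CPM (SD, n = 3 each) gave a log2 change of 0.71 by edgeR (SE 0.08, adjusted p = 0.000106), or 1.64 times the WT level. Scd1 (ENSMUSG00000037071.4, chromosome 19), the main form of adult liver and fat, was at 58.1, 76.7 and 68.8 CPM in the WT samples and at 101, 106 and 103 CPM in the AS samples.

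The Scd1 values of the lines did not overlap either, and WT replicate 1 was the lowest of the 6 for both genes. The Scd1 means were 67.9 ± 9.31 and 103 ± 2.59 CPM (SD, n = 3 each), a log2 change of 0.60 by edgeR (SE 0.09, adjusted p = 0.000692), or 1.52 times the WT level. Without WT replicate 1 the log2 fold changes were 0.64 for Scd2 and 0.50 for Scd1. Of the 50-base stretches of Scd1 and Scd2, 4.56% and 3.97% also occur in other genes, mostly in each other or in Scd3. The sum of both genes was 578, 711 and 640 CPM across WT and 1051, 1050 and 1035 CPM across AS replicates.

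Elovl6 (ENSMUSG00000041220.11, chromosome 3), the elongase from palmitate to stearate, changed most among the 10 genes. It was at 15.9, 17.8 and 19.6 CPM in the WT samples and at 30.9, 34.0 and 29.6 CPM in the AS samples, with a wide gap between the lines. The means of 17.8 ± 1.82 and 31.5 ± 2.24 CPM (SD, n = 3 each) gave a log2 change of 0.83 by edgeR (SE 0.09, adjusted p = 0.000108), or 1.78 times the WT level, and 0.75 without WT replicate 1. It rests on the fewest counts of the 10 genes, 807 to 1746 per sample.

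The genes of polyunsaturated fatty acid processing moved in different directions. Fads1 (ENSMUSG00000010663.6, chromosome 19), the delta-5 desaturase, was at 232, 268 and 273 CPM in the WT samples and at 360.2, 359 and 348 CPM in the AS samples, without overlap. Its means of 258 ± 22.0 and 356 ± 6.77 CPM (SD, n = 3 each) gave a log2 change of 0.46 by edgeR (SE 0.07, adjusted p = 0.000732), or 1.38 times the WT level, and 0.39 without WT replicate 1.

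Fads2 (ENSMUSG00000024665.9, chromosome 19), the delta-6 desaturase and the neighbour of Fads1, was at 768, 891 and 845 CPM in the WT samples and at 869, 840.0 and 819 CPM in the AS samples. All 3 AS values lay within the WT range, and the log2 change by edgeR was 0.01 (SE 0.07, adjusted p = 0.900). Its sign depended on the samples used, at -0.04 without WT replicate 1 and -0.02 without AS replicate 1. With 1 standard error its fold lay between 0.961 and 1.06.

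Elovl5 (ENSMUSG00000032349.14, chromosome 9), the elongase of polyunsaturated fatty acids, was at 106, 92.8 and 88.9 CPM in the WT samples and at 82.8, 70.8 and 74.2 CPM in the AS samples. The AS samples were all below the WT samples. The means of 95.8 ± 8.76 and 75.9 ± 6.15 CPM (SD, n = 3 each) gave a log2 change of -0.34 by edgeR (SE 0.08, adjusted p = 0.00919), or 0.793 times the WT level, and -0.26 without WT replicate 1.

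**Figure D2:**
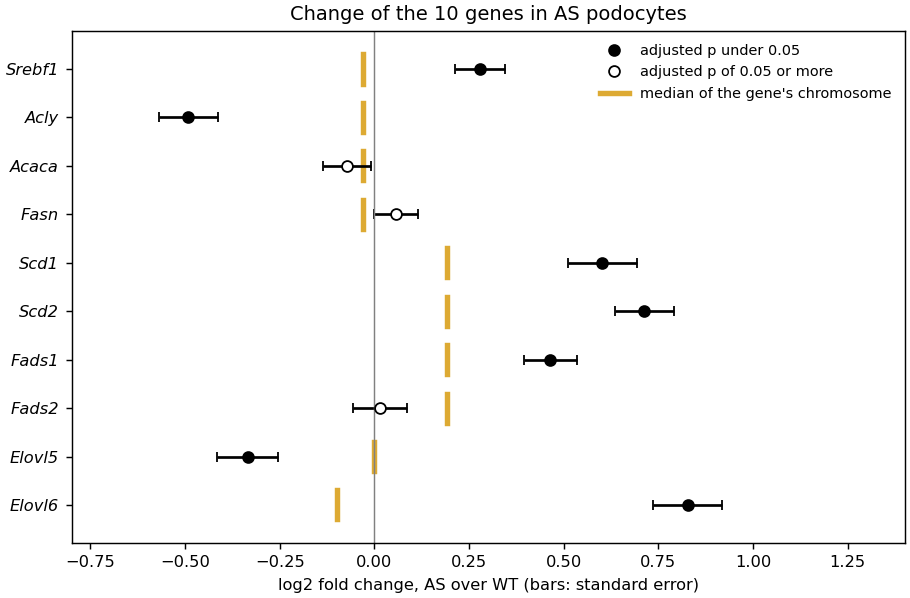
Log2 fold change of AS over WT podocytes (horizontal axis) for the 10 genes with the standard error as bars, filled where the adjusted p was under 0.05, and the median log2 fold change of each gene's chromosome as a yellow mark. Elovl6 is farthest to the right at 0.83 and Acly farthest to the left at -0.49, and the chromosome 19 genes Scd1, Scd2 and Fads1 lie to the right of their chromosome's median, whereas Fads2 lies to the left of it.

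Scd1, Scd2, Fads1 and Fads2 lie on chromosome 19, where most genes were higher in AS podocytes. Among genes with a mean log2 CPM over 2, chromosome 19 held 387, their median log2 fold change was 0.18 above that of all such genes, and 73.9% of them had a log2 fold change above 0. It was -0.05 for the 867 genes of chromosome 11 (Srebf1, Acly, Acaca, Fasn), -0.02 for the 612 genes of chromosome 9 (Elovl5) and -0.11 for the 533 genes of chromosome 3 (Elovl6). With the medians of the chromosomes removed, the log2 fold change was 0.43 for Scd1, 0.54 for Scd2, 0.29 for Fads1 and 0.94 for Elovl6, all still with an adjusted p under 0.05 (0.00560, 0.000702, 0.0114 and 5.4e-05, edgeR). That of Fads2 was -0.16 and did not pass (adjusted p = 0.113, edgeR). In gene order, Fads1, Fads2 and Fads3 follow each other, and Scd4 lies between Scd1 and Scd2. Chromosomes of genes named below were shifted too. Their medians were 0.31 above that of all such genes on chromosomes 8 (Tecr, Cyb5b, Mbtps1, Cbr4) and 10 (Stk11, Lss). On chromosomes 5 (Insig1, Cyp51) and 15 (Mcat) they were 0.19 above, and on chromosome 4 (H6pd, Prkaa2, Hacd4, Elovl1) the median was -0.18. List genes are given without removing these medians, whose part in the list counts was not tested.

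Levels were compared between genes as CPM per kb of exon. In WT podocytes Fads2 was highest at 253 ± 18.9 CPM per kb (SD, n = 3), followed by Scd2 at 105 ± 10.5, Acly at 64.7 ± 6.64 and Fads1 at 53.5 ± 4.57 CPM per kb. Fasn at 33.6 ± 0.432, Elovl5 at 27.2 ± 2.49, Scd1 at 13.9 ± 1.90, Srebf1 at 12.05 ± 0.766, Acaca at 5.06 ± 0.270 and Elovl6 at 2.76 ± 0.282 CPM per kb came after them. Of these neighbours, Scd1 and Srebf1 overlapped in their range over 3 samples, and all others were apart.

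In AS podocytes the order differed in a few places. Fads2 at 256 ± 7.64 and Scd2 at 172 ± 1.68 CPM per kb were still highest, while Fads1 at 73.9 ± 1.41 lay above Acly at 46.0 ± 1.77 CPM per kb. Elovl5 at 21.6 ± 1.75 and Scd1 at 21.1 ± 0.529 CPM per kb overlapped, as did Elovl6 at 4.90 ± 0.348 and Acaca at 4.81 ± 0.250 CPM per kb. Lengths are those of all annotated exons, and with the longest transcript instead, Acaca was at 9.08 CPM per kb in WT and 8.63 in AS podocytes, above Elovl6 in both lines, and Srebf1 at 15.8 CPM per kb came before Scd1 in WT podocytes.

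**Figure D3:**
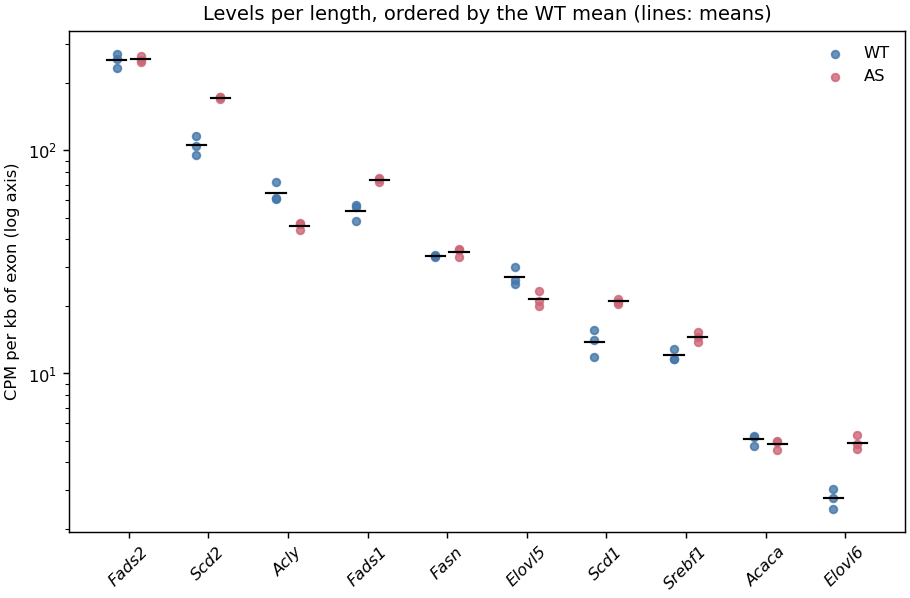
Level of the 10 genes in CPM per kb of exon (vertical log axis), with each WT (blue) and AS (red) sample as a point and the means as lines, ordered by the WT mean. The levels run from 253 CPM per kb for Fads2 to 2.76 CPM per kb for Elovl6 in WT podocytes, and the AS points of Scd2, Fads1, Scd1, Srebf1 and Elovl6 sit above the WT points.

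Ratios of paired enzymes within a sample, which do not depend on the scaling between libraries, were compared by an exact permutation test over samples, which for 3 against 3 cannot go below 0.10 (two-sided, 5 ratios). Fads1 over Fads2, per kb, was 0.207, 0.206 and 0.221 across WT replicates, compared with 0.284, 0.292 and 0.291 across AS replicates, without overlap (exact p = 0.10, adjusted p over 5 ratios 0.167). The delta-5 desaturase thus had 1.37 times its WT level relative to the delta-6 desaturase. Elovl6 over Elovl5 was 0.0825, 0.105 and 0.120 across WT replicates, compared with 0.205, 0.263 and 0.218 across AS replicates, 2.24 times the WT ratio and without overlap (exact p = 0.10, adjusted p 0.167).

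Scd1 over Scd2 was 0.125, 0.135 and 0.135 across WT replicates, compared with 0.118, 0.125 and 0.123 across AS replicates. The lines overlapped, the difference of the log2 ratio was -0.11 (exact p = 0.20, adjusted p 0.25), and with 1 sample left out it ran from -0.14 to -0.083. Scd1 made up 11.1 to 11.9% of both desaturases per length in WT and 10.6 to 11.1% in AS podocytes. Acaca over its paralog Acacb was 9.59 ± 0.574 and 9.24 ± 0.613 (SD, n = 3 each, exact p = 0.50, adjusted p 0.50). Fasn over Acaca was 7.16, 6.42 and 6.40 across WT replicates, compared with 7.16, 7.34 and 7.32 across AS replicates (exact p = 0.10, adjusted p 0.167), with WT replicate 1 and AS replicate 1 almost equal.

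**Figure D4:**
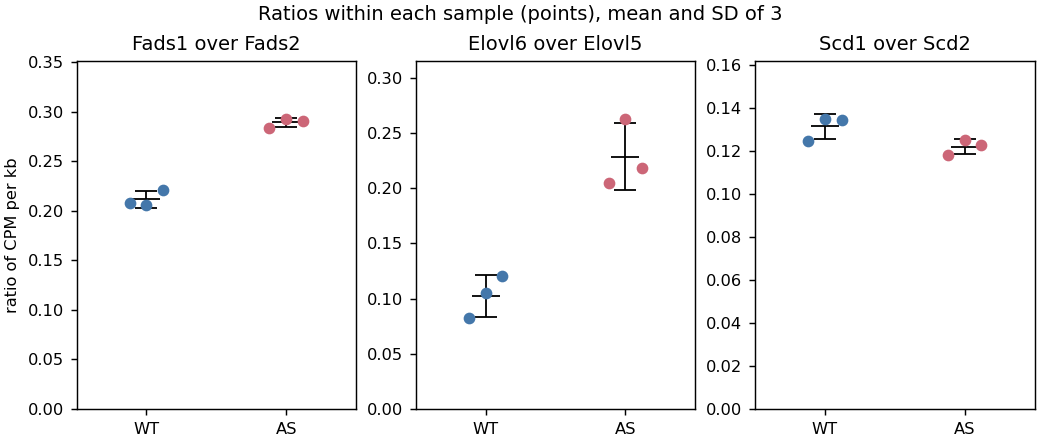
Ratio of CPM per kb of 2 genes within each sample (vertical axes, from 0) for WT (blue) and AS (red) samples, with the mean and SD in black. Fads1 over Fads2 and Elovl6 over Elovl5 are higher in every AS sample than in every WT sample, whereas Scd1 over Scd2 overlaps.

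The other genes of the pathway were taken from a list of 27 enzymes and carriers, of which 21 passed the filter on low counts, 7 rose and 6 fell in AS podocytes (edgeR, adjusted p under 0.05), with a median log2 fold change of -0.05. The called share was 61.9% of those tested, against 40.1% of all genes tested. Without AS replicate 2, 4 rose and 5 fell. Among further desaturases, Fads3, the neighbour of Fads2, rose from 242 ± 15.7 to 291 ± 17.9 CPM (SD, n = 3 each, log2 fold change 0.27). Scd4 rose from 0.208 ± 0.0317 to 0.819 ± 0.104 CPM (SD, n = 3 each, log2 fold change 1.96), a low level resting on 8 to 42 counts per sample, with 5.54% of its 50-base stretches in other genes. Scd3 and Fads6 were below 0.12 CPM in every sample and were not tested. Of the further elongases, Elovl1 fell by 0.19 on the log2 scale, close to the median of its chromosome 4 (-0.18). Elovl4 and Elovl7 did not pass the test at log2 fold changes of -0.31 and -0.02, and Elovl2 and Elovl3 were not tested, with means under 0.03 CPM.

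The remaining enzymes of the elongation cycle were not moved together. The reductase Tecr, which completes each round, rose by a log2 fold change of 0.31, while the dehydratases Hacd2 and Hacd4 were at -0.41 and -0.28 and the ketoreductase Hsd17b12 at -0.23, each with an adjusted p under 0.05 (edgeR). The dehydratases Hacd1 and Hacd3 did not pass, both at -0.10. Hacd3 had the highest CPM of these dehydratases, at 154 ± 10.8 in the WT and 145 ± 5.52 in the AS line (SD, n = 3 each). Cytochrome b5 (Cyb5a), which passes electrons to the desaturases, was at 114, 136 and 128 CPM in the WT samples and 80.7, 88.6 and 84.5 CPM in the AS samples, a log2 fold change of -0.58 (adjusted p = 0.000261, edgeR). Its outer mitochondrial membrane form Cyb5b was at 0.22 and passed, and the reductase Cyb5r3, the highest gene of the list at mean levels of 466 and 507 CPM, did not (log2 fold change 0.12).

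Acss2, which makes acetyl-CoA from acetate, was at 12.9, 15.0 and 10.8 CPM in the WT samples and 20.3, 20.0 and 20.2 CPM in the AS samples, a log2 fold change of 0.64 (adjusted p = 0.00186, edgeR). The citrate carrier Slc25a1 was at 78.4 ± 6.99 and 71.7 ± 0.642 CPM (SD, n = 3 each) and did not pass (log2 fold change -0.13), nor did Acacb (5.09 ± 0.215 and 5.04 ± 0.576 CPM). Mid1ip1, which helps Acaca to polymerize, was at 50.9 ± 1.79 and 49.1 ± 1.55 CPM (SD, n = 3 each), and the related Thrsp stayed below 1 CPM in every sample.

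A list of 11 genes around the supply of NADPH, the reducing agent of fatty acid synthesis, held 3 that rose and 3 that fell in AS podocytes. Some of them, such as Tkt, make no NADPH themselves, and H6pd makes it in the endoplasmic reticulum rather than the cytosol. H6pd, the glucose-6-phosphate dehydrogenase of the endoplasmic reticulum, was at 343, 289 and 329.9 CPM in the WT samples and 159, 144 and 154 CPM in the AS samples, 0.474 times the WT level (log2 fold change -1.08, adjusted p = 6.6e-06, edgeR). Malic enzyme (Me1), which is also on the list of enzymes and carriers, was at 145, 151 and 168 CPM in the WT and 109, 115 and 107 CPM in the AS samples (log2 fold change -0.48). Idh1 rose by a log2 fold change of 0.42, and Tkt, at 251 ± 25.5 and 221 ± 5.27 CPM (SD, n = 3 each), did not pass. Of the 11 genes 54.5% were called, against 40.1% of all genes tested. The mitochondrial route of fatty acid synthesis had 9 of 10 genes matched, all tested, of which Mcat (log2 fold change 0.48) and Cbr4 (0.35) were higher. They were 22.2% of the list genes tested, against 20.4% higher and 40.1% in either direction among all genes tested. In that list 0 genes were lower in edgeR, limma-voom or DESeq2 at an adjusted p under 0.05, and 1 was at an unadjusted p under 0.05 in edgeR. Lias was at 0.19 and Ndufab1 at -0.15, both without passing.

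Of 19 regulators of lipogenesis 18 were tested, of which 9 were higher and 2 lower in AS podocytes, with a median log2 fold change of 0.16. Their called share was 61.1%, against 40.1% of all genes tested. Insig1, which holds the SREBP precursors in the endoplasmic reticulum and is itself a target of SREBP, was at 21.4, 20.7 and 21.8 CPM in the WT samples and 38.7, 46.6 and 34.2 CPM in the AS samples, a log2 fold change of 0.90 (adjusted p = 0.000163, edgeR). The escort protein Scap rose from 79.6 ± 2.76 to 99.4 ± 3.27 CPM, and the site-1 protease Mbtps1, from 219 ± 11.7 to 292 ± 18.3 CPM (SD, n = 3 each). Srebf2 at 136 ± 6.83 and 146 ± 5.11 CPM and Insig2 at 46.3 ± 4.32 and 41.6 ± 3.59 CPM (SD, n = 3 each) did not pass.

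Rnf145, a ubiquitin ligase of the sterol system, had a log2 fold change of 0.45 and the kinase Stk11, which activates AMPK, of 0.42, both with an adjusted p under 0.05 (edgeR). The AMPK subunit gene Prkaa2 was lower at -0.46 (98.5 ± 2.07 against 71.9 ± 4.44 CPM, SD, n = 3 each). Prkaa1, another AMPK subunit gene of the list, did not pass (86.9 ± 1.35 against 84.6 ± 3.95 CPM, SD, n = 3 each, log2 fold change -0.04). The liver X receptor gene Nr1h2 was lower at -0.17, and Nr1h3 was at 0.506 ± 0.219 and 0.259 ± 0.189 CPM (SD, n = 3 each) and did not pass. Mlxipl, which encodes the glucose-responsive factor ChREBP, stayed below 0.2 CPM in every sample and was not tested.

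SREBP2 target genes of cholesterol synthesis and uptake, which share the SREBP system with the 10 genes, were compared as the nearest group. All 22 were tested and 10 were higher in AS podocytes, while 0 were lower in edgeR and limma-voom and 2 in DESeq2 at an adjusted p under 0.05, and 2 were lower at an unadjusted p under 0.05 in edgeR. In edgeR 45.5% were called, all of them higher, against 20.4% higher and 40.1% in either direction among all genes tested. The median log2 fold change was 0.30. Cyp51 was at 38.5, 46.6 and 42.9 CPM in the WT samples and 70.6, 88.0 and 65.7 CPM in the AS samples (log2 fold change 0.81), Lss was at 0.58 and Hsd17b7 at 0.63. Hmgcs1, the highest gene of the list, had a log2 fold change of 0.33.

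**Figure D5:**
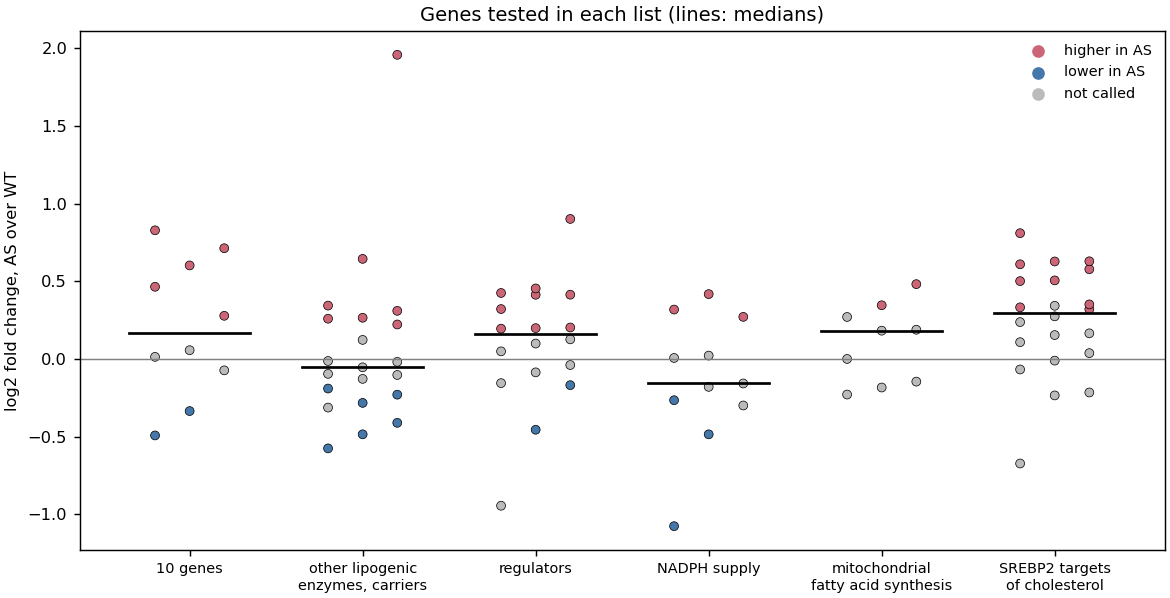
Log2 fold change of AS over WT podocytes (vertical axis) for each gene tested in the 10 genes and the 5 lists, red where higher, blue where lower and grey where the adjusted p was 0.05 or more, with the median of each list as a line. The medians run from -0.16 for NADPH supply to 0.30 for the SREBP2 targets, and each list other than the mitochondrial route and the SREBP2 targets holds both red and blue points.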

How the data were processed

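RNA of 3 WT and 3 AS podocyte samples was sequenced from mRNA libraries made with 15 cycles of PCR. The deposited values are whole read counts of each gene, which the authors did not normalize. The submitters' processing notes name FastQC, Trim Galore, STAR, edgeR and mm39, whereas the counting step, strand setting and annotation release were not given in the sources used here. Versions were removed from the Ensembl identifiers, and 51880 matched GENCODE M21 (GRCm38), which was used for names, chromosomes, gene order and exon lengths. Of 151 listed genes 150 matched.

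The tests were run with edgeR 4.0.16 (R 4.3.3): filterByExpr (minimum count 10, minimum total count 15), TMM scaling and the quasi-likelihood test, two-sided, with genotype as the only term and Benjamini-Hochberg adjustment over 16263 genes. Standard errors are approximate: each is the log2 fold change over the root of its F statistic. The precision of counts is limited by 45417221 to 54290968 counts per sample, and PCR copies could not be told from separate molecules. On simulated data, edgeR without a block recovered small changes only in part. DESeq2, the replicate block and, by a small margin, limma-voom made a larger share of false calls than it did. The simulated samples had no replicate effect and far fewer changed genes than were called here, so that they cannot judge the block. Counts from these other fits are given as alternatives only.

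The members and lists were chosen with earlier results of these data known. Named genes were the 10 members, Col4a3, the 3 genes of smallest adjusted p (mean CPM of at least 1) and the 2 of highest mean CPM in each pathway list, paralogs of members and main regulators, with the highest marker of each other cell type. Some genes that this rule names are not reported here. Podocyte and adipocyte markers, Vwf, Pdgfrb, Prkaa1, Prkaa2, Acss2, Slc25a1, Hacd1, Hacd2, Hacd3, Hacd4, Hsd17b12, Cyb5b, Gm5182 and Rai1 were named in addition after their values were seen. Alternatives were RLE size factors, library size only, DESeq2 1.42.0, limma-voom (limma 3.58.1), a replicate block, all genes kept, genes of mean CPM 1 or more, chromosome medians removed, the longest transcript as length, and each sample left out. Promoters came from RefSeq (GRCm38.p6).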

Additional observations from a re-analysis of the deposited data

How the results depend on the processing

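Of 140 values of the 10 genes under the alternatives, 137 had the same sign and the same call, and 3 changed sign, all of them Fads2, which did not pass in any fit. Fads2 was at -0.16 with chromosome medians removed, and between -0.044 and 0.061 with each sample left out. The cause was not tested. Over all alternatives the adjusted p of Srebf1 ran up to 0.0437, that of Elovl5 up to 0.0434 and that of Fads1 up to 0.0114, and those of Acly, Scd1, Scd2 and Elovl6 up to 0.0078, 0.0056, 0.001 and 0.000811.

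The counts of members called, 5 higher and 2 lower, held in every fit across all genes. List counts near the threshold moved. Of the regulators, 9 were higher, against 8 without a filter and 6 (without AS replicate 1) to 9 with each sample left out. Of the same list, 2 were lower, and 1 was with library size only or without a filter, and from 1 to 2 with each sample left out. Of the SREBP2 targets, 10 were higher, against 12 without a filter and 13 with the replicate block. With each sample left out, 8 to 11 of them were higher. In the main fit 0 were lower, against 2 with DESeq2, 3 without a filter, 2 with the replicate block and 0 to 3 with each sample left out (3 without WT replicate 1, 2 without AS replicate 2). Of the other enzymes and carriers, 7 were higher, and 4 to 7 with each sample left out, the fewest without AS replicate 2, while 6 were lower, and 4 with library size only or without AS replicate 3. Of the mitochondrial route, 2 were higher, and from 1 (without AS replicate 2 or 3) to 2 with each sample left out, while 0 to 2 were lower, the latter without WT replicate 1.

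Whether samples of the same number share a culture or day is not stated, and the numbers were not treated as pairs. After subtracting group means, same-numbered WT and AS samples had correlations of 0.147, 0.0939 and 0.0526 over 16263 genes, and other pairs had -0.13 to 0.0571. With the replicate block the log2 fold changes of the 10 genes kept their calls, at 0.28 for Srebf1 and 0.72 for Scd2, and 3636 of all genes were higher and 3430 lower, against 3324 and 3193 without it. Scd3, Fads6, Elovl2, Elovl3, Thrsp and Mlxipl did not pass the filter on low counts, so that no change is given for them.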
